A study of Mus musculus with 6 samples.

Results

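Goblet cell mucus genes are described here as 9 named members, Muc2, Fcgbp, Zg16, Clca1, Tff3, Retnlb, Muc13, Agr2 and Spdef. They were chosen by gene name, with earlier results of these data known. They are 9 of 19053 named genes on the arrays and were reported by 13 of 45281 probes. For each gene the probe with the highest mean over the 6 arrays gave its value, and the other probes of Muc2, Muc13 and Clca1 stand beside it. The study asked how intestinal mRNA differs between irradiated mice given free ubiquitin (free Ub), a small protein here injected outside cells, and those given the phosphate-buffered saline vehicle (PBS). Per the labels, all samples came from male C57 mice (C57BL/6J in the study's methods) aged 4 weeks that received 1 total body dose of 7 Gy and then either agent, and intestine was taken at 3.5 days. There were 3 samples with PBS and 3 with free Ub, each on 1 Illumina MouseWG-6 v2 array. The methods and a legend of the study give an older age, an injection before radiation and an earlier time, so age, order and time are not settled. No array held unirradiated intestine, and every difference below is free Ub against PBS after radiation.

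Goblet cells are secretory cells scattered through the intestinal epithelium, and they release the mucus gel that keeps bacteria and food from the epithelial surface. The gel is a net of the mucin Muc2, to which other secreted proteins such as Fcgbp, Zg16, Clca1, Tff3 and Retnlb are added, while membrane mucins such as Muc13 coat the cell surface. The cell's output depends on the transcription factor Spdef, which drives goblet maturation, and on folding enzymes such as Agr2 in the endoplasmic reticulum. The intestinal epithelium renews itself from dividing crypt cells, which radiation damages.

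Muc2 and Fcgbp, the large proteins of the gel, are both encoded on chromosome 7. Muc2 lies at chr7:141690340-141754691 and Fcgbp at chr7:28071236-28120864 in GRCm38.p6. The 250 bases before their annotated starts are shown from RefSeq because they are the promoters, among the members, that held more than 1 of the searched motifs. Windows were given for 5 members, Muc2, Fcgbp, Agr2, Spdef and Muc13, and none for Tff3, Zg16, Retnlb and Clca1. Both are on the plus strand, at chr7:141690090-141690339 for Muc2 and at chr7:28070986-28071235 for Fcgbp. Capitals mark TATAAA and then CAGCTG, an E-box, in Muc2, and CAGCTG and then GGGTGTGG, a motif of Krüppel-like factors, in Fcgbp.
Muc2: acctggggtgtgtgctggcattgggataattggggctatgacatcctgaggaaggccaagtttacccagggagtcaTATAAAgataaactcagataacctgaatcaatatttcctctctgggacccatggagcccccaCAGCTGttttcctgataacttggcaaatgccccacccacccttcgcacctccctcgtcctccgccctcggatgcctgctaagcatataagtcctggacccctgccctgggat
Fcgbp: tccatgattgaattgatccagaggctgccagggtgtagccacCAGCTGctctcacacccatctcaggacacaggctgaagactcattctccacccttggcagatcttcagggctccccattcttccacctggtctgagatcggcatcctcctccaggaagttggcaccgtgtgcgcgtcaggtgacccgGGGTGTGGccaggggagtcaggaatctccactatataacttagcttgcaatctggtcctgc
The motif positions, counted from the annotated start, were -174 and -112 in Muc2 and -208 and -61 in Fcgbp. The other motifs searched, on both strands, were ACCGGAT and CCGGAAG (ETS factors, the family of Spdef), TGTTTAC (FOX) and TTTATGG and TTTATTG (CDX). The Agr2 window held CCATAAA, the reverse of TTTATGG, at -48, and the windows of Spdef and Muc13 held none of these letters. Of 32851 RefSeq windows of 300 bases (250 before the start and 50 after it), 16.3% held CAGCTG, 13.6% TATAAA, 3.56% GGGTGTGG and 2.75% TTTATGG. ETS motifs ACCGGAT and CCGGAAG were in 0.989% and 8.86%, TGTTTAC in 3.65% and TTTATTG in 4.60%. A match describes letters in a window and shows no binding.

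None of the 9 mucus genes differed between free Ub and PBS beyond the spread between samples. In limma, 0 of 9 had an unadjusted p under 0.05, where 5.73% of all named genes did, and 0 had an adjusted p under 0.05, where 0.0577% did. In 0 of 9 did the 3 values of one group all lie above those of the other, which was so for 10.4% of all named genes. Free Ub had the higher mean in 5 members and the lower in 4, against 44.3% of all named genes higher. The median difference was 0.01 log2, and -0.00 over all named genes. Genes at the floor on all arrays count as lower in that share, because the floor was slightly lower with free Ub, and -0.00 is their difference. The 6 members with a mean log2 signal above 6, Muc2, Fcgbp, Zg16, Clca1, Tff3 and Muc13, were split into 3 higher and 3 lower, with a median of -0.02. Of all named genes with a mean above 6, 47.1% were higher, with a median of -0.01. In whole intestine a lower value could come from fewer goblet cells or from less RNA in each, and these cannot be told apart. All values are log2 signals as normalized by the authors, errors are SD with n = 3 per group, and differences are free Ub minus PBS with a 95% interval from limma.

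**Figure D1:**
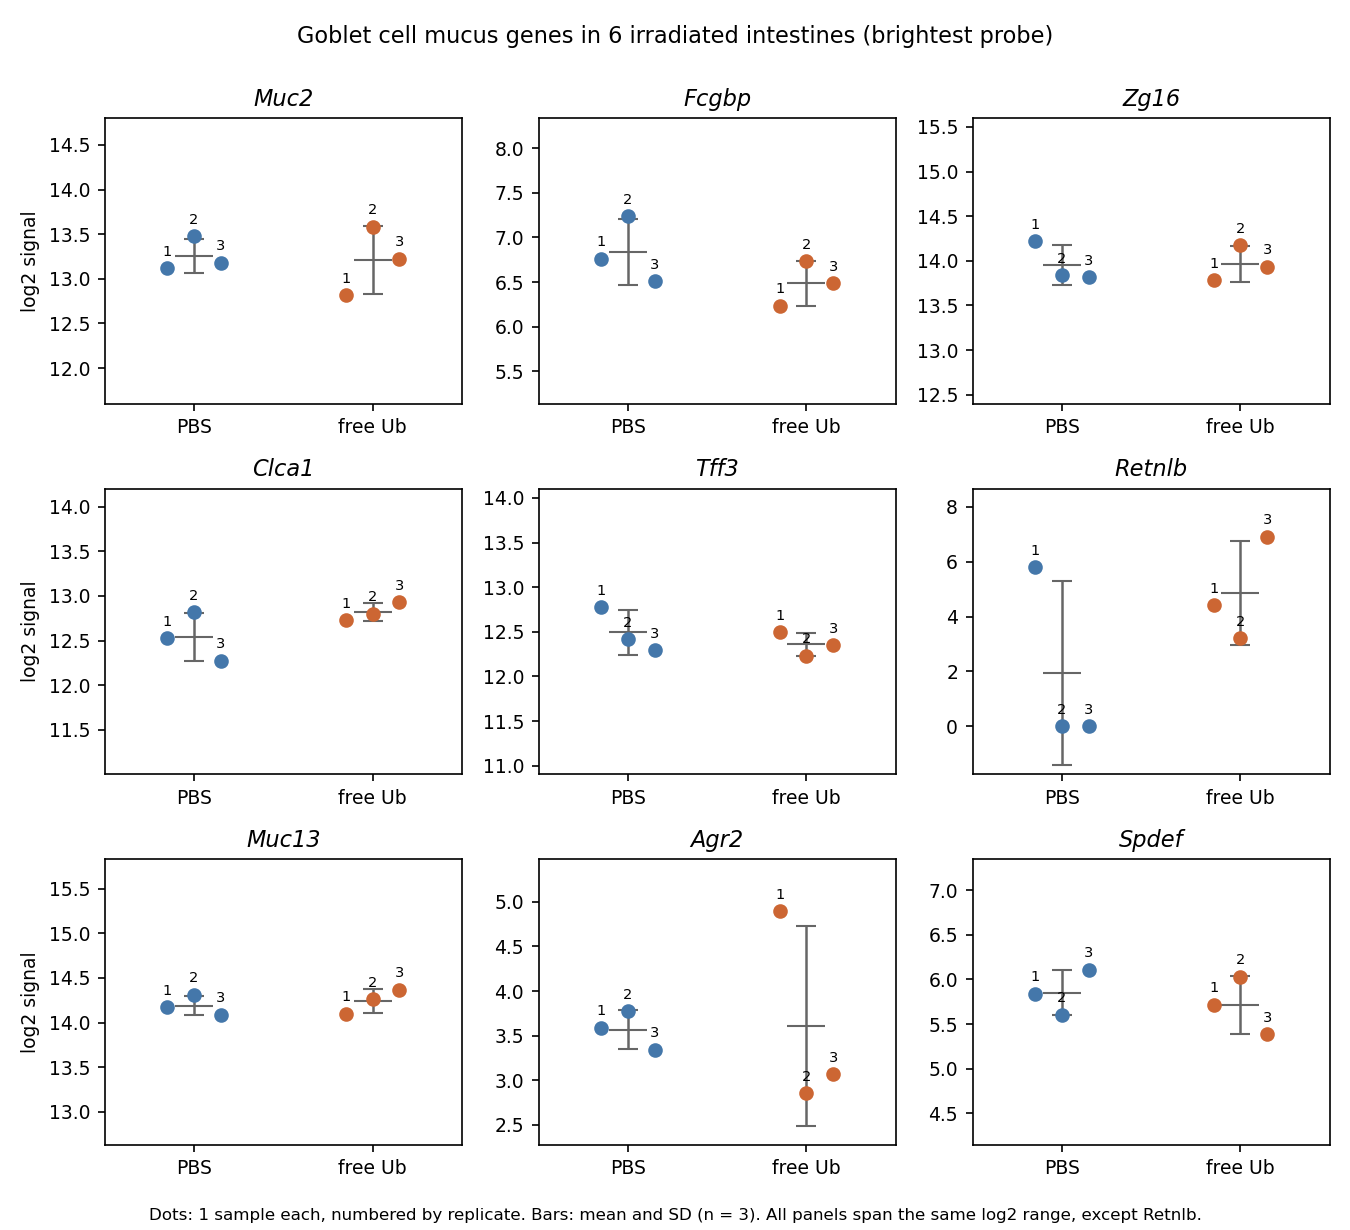
Log2 signal of each mucus gene (brightest probe) in the 3 PBS and 3 free Ub samples, with points numbered by replicate and bars for mean and SD. The groups overlapped in all 9 panels, and Retnlb spanned 6.91 log2 while Muc13 spanned 0.281.

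Muc2, the mucin that forms the gel, was close to level between the treatments. Its log2 signals were 13.12, 13.48 and 13.18 with PBS and 12.82, 13.58 and 13.22 with free Ub. The lowest and the highest of the 6 values were both in the free Ub group. The means were 13.26 ± 0.19 and 13.21 ± 0.38, a difference of -0.05 (95% interval -0.67 to 0.57, adjusted p = 0.979 in limma, exact permutation p = 1). On the linear scale this interval runs from 0.629-fold to 1.48-fold of PBS. Compared with probes of like brightness, Muc2 varied widely between samples, since its SD over the 6 arrays was larger than that of 92.2% of 129 probes with a mean within 0.5 log2. The other Muc2 probes were near the bottom of the scale. One gave 2.96, 2.68 and 3.67 with PBS and 3.08, 2.06 and 0.75 with free Ub (difference -1.14, adjusted p = 0.872), and the other was listed at the floor on 5 of 6 arrays, with 2.26 in free Ub replicate 2.

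Fcgbp, a large cysteine-rich protein secreted with Muc2 and found in the gel, had the lowest free Ub mean relative to PBS among the bright members. It gave 6.76, 7.24 and 6.51 with PBS and 6.24, 6.73 and 6.49 with free Ub. PBS replicate 2 was the highest and free Ub replicate 1 the lowest, and the ranges overlapped because free Ub replicate 2 lay above PBS replicate 3. The means were 6.84 ± 0.37 and 6.49 ± 0.25, a difference of -0.35 (interval -0.99 to 0.29, adjusted p = 0.872, exact permutation p = 0.2). On the linear scale the interval runs from 0.502-fold to 1.22-fold of PBS.

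Zg16, a lectin-like protein of the mucus that binds bacterial cell walls, was the member with the smallest difference. It lies at chr7:127050156-127052675. Its signals were 14.22, 13.84 and 13.82 with PBS and 13.78, 14.17 and 13.94 with free Ub, with means of 13.96 ± 0.23 and 13.96 ± 0.20. One sample in each group stood above the other 4, PBS replicate 1 and free Ub replicate 2. The difference was 0.01 (interval -0.43 to 0.44, adjusted p = 0.992). The highest value of the whole table was 14.49, so Zg16 and Muc13 were measured near the top of the scale, and changes there may be understated.

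Clca1, a metalloprotease of the mucus that processes Muc2, had the largest rise in mean among the bright members. The gene, at chr3:145004537-145032776, was matched through its gene identifier, because the older mouse name Clca1 belongs to another gene. It gave 12.53, 12.82 and 12.27 with PBS and 12.73, 12.80 and 12.93 with free Ub. The 3 free Ub values lay close together, and PBS replicate 2 fell among them. The means were 12.54 ± 0.27 and 12.82 ± 0.10, a difference of 0.28 (interval -0.14 to 0.70, adjusted p = 0.872, exact permutation p = 0.3), or 1.21-fold. The other Clca1 probe followed the first array by array, with 12.57, 12.68 and 12.23 with PBS and 12.57, 12.66 and 12.89 with free Ub (difference 0.21). After each probe was centred on its mean, the pair differed by at most 0.121 log2 on any array. The sample-to-sample pattern of Clca1 was therefore reported alike by both probes, while the pair of Muc13 differed by up to 0.342.

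Tff3, the goblet cell trefoil peptide that aids epithelial repair, was measured by 1 probe. Its signals were 12.78, 12.41 and 12.29 with PBS and 12.50, 12.23 and 12.35 with free Ub. PBS replicate 1 was the highest, and the remaining values were interleaved. The means were 12.49 ± 0.25 and 12.36 ± 0.13, a difference of -0.13 (interval -0.55 to 0.28, adjusted p = 0.918).

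Retnlb, a resistin-like peptide that goblet cells secrete in response to bacteria and type 2 cytokines, varied most between samples. It was listed at 5.80 in PBS replicate 1 and at the floor of the table in PBS replicates 2 and 3, against 4.41, 3.20 and 6.91 with free Ub. The 3 free Ub samples were all above the floor, but PBS replicate 1 lay above 2 of them. The SD of its values over the 6 arrays, 2.91, was larger than that of 99.9% of 3700 probes with a mean within 0.5 log2. The comparison of the groups gave an adjusted p of 0.872 in limma and an exact permutation p of 0.3. A floor value is no measured zero, so no fold is given. Without PBS replicate 1 the groups no longer overlapped and the unadjusted p was 0.027 (adjusted p = 0.758), where 17.4% of all named genes had separate groups and 5.78% an unadjusted p under 0.05. That setting removes the only PBS value above the floor, so it fixes the separation and cannot support a difference.

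Muc13, a membrane mucin of goblet cells and enterocytes, had the smallest range of the brightest probes, near the top of the scale, while its less bright probe ranged over 0.655 log2, more than Zg16 (0.437) or Tff3 (0.543). It gave 14.17, 14.31 and 14.09 with PBS and 14.10, 14.26 and 14.37 with free Ub. The groups overlapped through most of their range. The means were 14.19 ± 0.11 and 14.24 ± 0.14, a difference of 0.05 (interval -0.21 to 0.31, adjusted p = 0.979). Its other probe gave 12.41, 12.69 and 12.49 with PBS and 12.69, 13.07 and 12.75 with free Ub. On that probe the lowest free Ub value lay just above the highest PBS value. The difference was 0.31 (interval -0.05 to 0.67, adjusted p = 0.872), and the exact permutation p of 0.1 is the smallest that 3 against 3 samples can give.

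Agr2, the disulfide isomerase that folds Muc2, was measured by a dim probe. It gave 3.59, 3.77 and 3.34 with PBS and 4.90, 2.86 and 3.07 with free Ub. Free Ub replicate 1 was above all PBS values and the other free Ub replicates below them. The means were 3.57 ± 0.21 and 3.61 ± 1.12, a difference of 0.04 (interval -1.60 to 1.68, adjusted p = 0.986). Without free Ub replicate 1 the difference was -0.60, with an unadjusted p of 0.027 and an adjusted p of 0.649, where 7.22% of all named genes had an unadjusted p under 0.05. Leaving out the only free Ub value above PBS fixes that sign, so the result lends no support to a difference. The brightness of a probe is no guide to the level of its gene here, since Hspa5, a chaperone of every cell, gave 3.99 ± 0.44 with PBS, and Fabp1, an abundant enterocyte protein, was at the floor on 4 arrays.

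Spdef, the transcription factor of goblet maturation, gave 5.84, 5.60 and 6.11 with PBS and 5.71, 6.03 and 5.39 with free Ub. High and low values occurred in both groups. The means were 5.85 ± 0.25 and 5.71 ± 0.32, a difference of -0.14 (interval -0.73 to 0.45, adjusted p = 0.979). The gene lies at chr17:27714446-27731003, on the same chromosome as Tff3 (chr17:31125306-31129611). Muc13 (chr16:33794037-33819929) and Retnlb (chr16:48816856-48818892) also share a chromosome, and Agr2 lies at chr12:35992925-36004081.

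**Figure D2:**
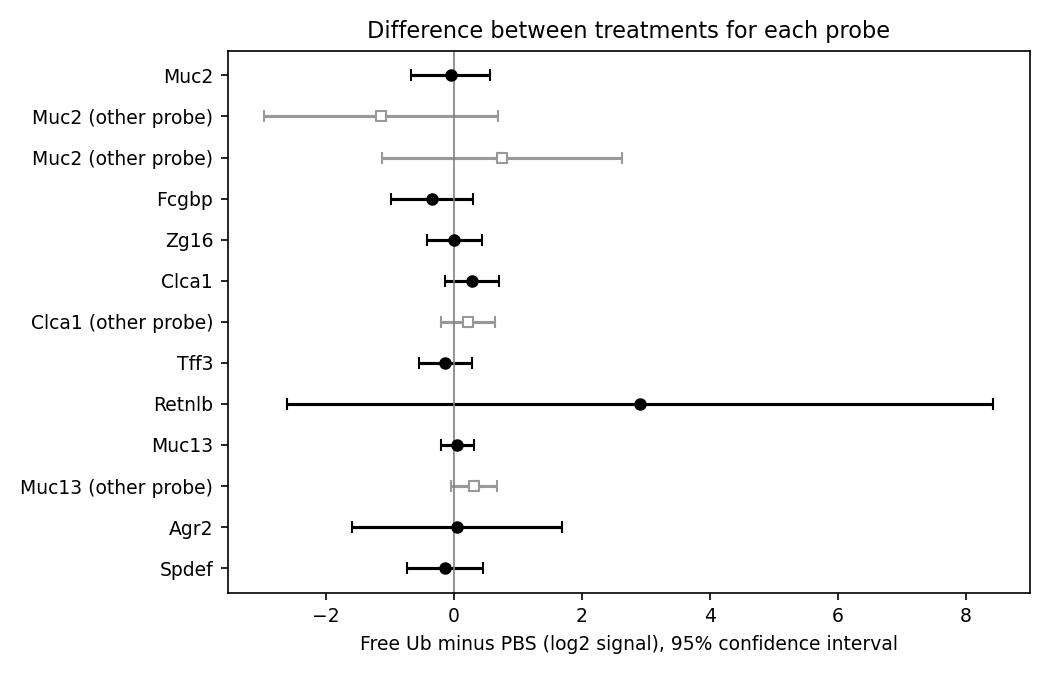
Difference in log2 signal, free Ub minus PBS, for the 13 probes of the 9 mucus genes, with 95% intervals from limma. Filled circles are the brightest probe of a gene and open squares its other probes. All 13 intervals include 0, from the narrow one of Muc13 (-0.21 to 0.31) to that of Retnlb (-2.62 to 8.43).

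Samples given the same agent differed from one another in the mucus genes. Each of the 6 bright members was centred on its mean over the 6 arrays, and the centred values were averaged within a sample. These averages were 0.07, 0.15 and -0.17 with PBS and -0.17, 0.10 and 0.02 with free Ub. PBS replicate 3 and free Ub replicate 1 were thus the low samples, 1 in each group. Free Ub replicate 1 had the lowest value of 3 members (Muc2, Fcgbp and Zg16), PBS replicate 3 that of 2 (Clca1 and Muc13) and free Ub replicate 2 that of 1 (Tff3). PBS replicate 3 was below the mean in all 6 members and free Ub replicate 1 in 4, with Tff3 and Clca1 above.

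The 2 samples low in mucus genes were also the highest in markers of pancreatic acinar cells, the digestive enzyme cells of the pancreas. The summed log2 signal of 10 such genes was 16.00, 14.99 and 17.16 with PBS and 17.03, 16.06 and 13.10 with free Ub, a range of 4.05. All 10 had a lower mean with free Ub, where 55.7% of all named genes did. Of the 10, 0 had an unadjusted p under 0.05, and none was at the floor on all arrays. Goblet markers summed in the same way ranged from 15.05 to 15.33 with PBS and from 15.05 to 15.39 with free Ub. Of the other epithelial cell lists, those of absorptive enterocytes and of general intestinal epithelium were lowest in the same samples, and the others were not. The summed signal of absorptive enterocyte markers was 16.40, 16.45 and 16.25 with PBS and 16.24, 16.36 and 16.27 with free Ub, lowest in PBS replicate 3 and free Ub replicate 1. That of general intestinal epithelium markers was 15.72, 15.74 and 15.48 with PBS and 15.65, 15.74 and 15.78 with free Ub, and these 2 samples were again the lowest. Paneth cell markers were highest in PBS replicate 3, at 15.57, and lowest in free Ub replicate 1, at 14.87. Lyz1 of that list stood at 14.49, the highest value of the whole table, in PBS replicate 3 and free Ub replicates 2 and 3. The Paneth sums of those samples may be understated, and their order is not settled. Enteroendocrine markers were lowest in free Ub replicate 2, at 12.20, and stood at 12.85 in free Ub replicate 1. The part of the pancreatic signal in these values was not tested. Without those 2 samples, 3 members (Tff3, Fcgbp and Agr2) had groups that did not overlap, as did 34.1% of all named genes, and Agr2 differed by -0.72 (unadjusted p = 0.018, adjusted p = 0.419), where 8.89% of all named genes had an unadjusted p under 0.05.

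**Figure D3:**
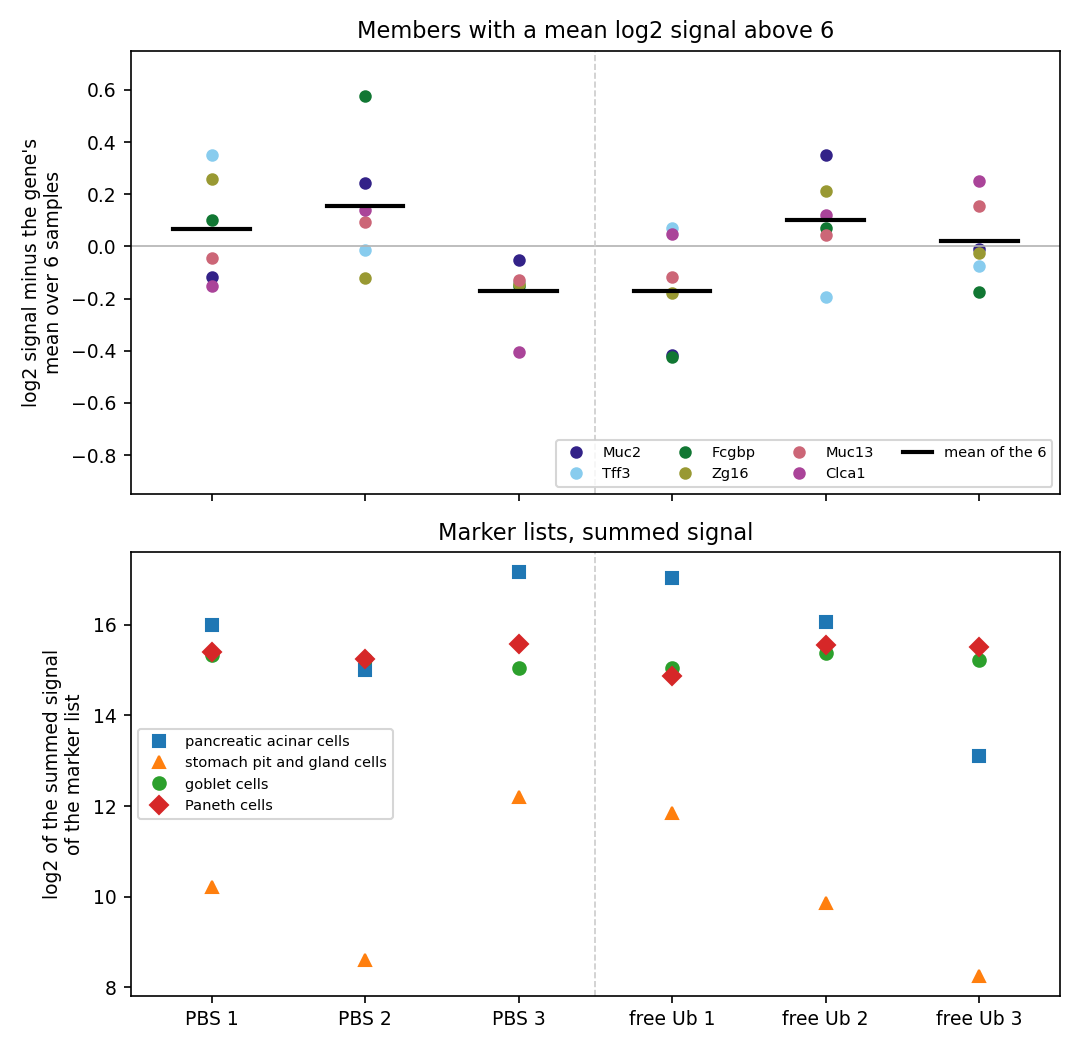
Top, log2 signal of the 6 mucus genes with a mean above 6, each minus its mean over the 6 samples, with a bar for their average in each sample. Bottom, log2 of the summed signal of 4 marker lists. The averages are lowest, at -0.17, in PBS replicate 3 and free Ub replicate 1, where the pancreatic sums are highest, at 17.16 and 17.03.

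The tissue carried markers of small intestinal epithelium. Vil1, a protein of the microvilli, gave 12.56 ± 0.06 with PBS and 12.68 ± 0.18 with free Ub, and Lct, the lactase of small intestinal enterocytes, 11.43 ± 0.24 and 11.58 ± 0.26. Of 8 proximal small intestine markers, 6 had a mean above 6. Of the others, Fabp1 was at the floor on 4 arrays and Gata4 gave 4.61 ± 0.94 with PBS and 5.08 ± 0.18 with free Ub. Among the 6 was Pdx1, a transcription factor of duodenum and also of pancreas, with 8.90 ± 0.30 and 9.10 ± 0.38. Of 5 distal ileum markers, Fabp6 and Slc10a2 were at the floor on all arrays, while 2 had a mean above 6, the bile acid carriers Slc51a and Slc51b, with PBS means of 12.00 and 10.45. Of 10 large intestine markers measured, Hoxb13 was at the floor on all arrays and 4 had a mean above 6, with PBS means of 11.53 for B4galnt2, 8.83 for Slc37a2, 8.66 for Cyp2c55 and 6.47 for Car4. The labels name no segment of intestine, and these values do not settle one. Markers of Paneth cells, the other secretory cells of the crypt base, summed to 15.25 to 15.57 with PBS and 14.87 to 15.56 with free Ub, with free Ub replicate 1 the lowest.

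Genes whose values ran most nearly with the mucus genes were found by Pearson correlation with the averages of the 6 bright members. Of 6135 other genes with a mean above 6, 139 had r of at least 0.9 over the 6 samples, which share their arrays and the low PBS replicate 3 and free Ub replicate 1. The highest were Zdhhc21 (r = 0.992), a palmitoyl transferase, Napg (0.985), a protein of vesicle fusion, and Skil (0.980), a repressor of TGF-beta signals. Zfyve26 (0.977), Brox (0.976), Aldoa (0.976), Usp6nl (0.975) and Tnpo3 (0.970) followed. Zdhhc21 gave 8.05, 8.23 and 7.58 with PBS and 7.54, 8.07 and 8.02 with free Ub. These correlations describe 6 points and were chosen as the highest, and none of the genes is a defining goblet cell marker.

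Genes that act before and around the mucus genes were taken from 6 lists, and 0 in any list had an adjusted p under 0.05. Beside the counts of these lists, 44.3% of all named genes were higher in mean and 55.7% lower. An unadjusted p under 0.05 was found for 5.73% and separate groups for 10.4%. Of 15 goblet differentiation factors, 11 had a higher mean and 3 a lower mean with free Ub, and Atoh1, the factor that starts the secretory lineage, never left the floor. The median of the differences was 0.07. Cdx2, a transcription factor of intestinal identity, gave 9.83 ± 0.03 with PBS and 9.55 ± 0.13 with free Ub, lower in 3 of 3 samples (difference -0.27, unadjusted p = 0.018, adjusted p = 0.750). The groups of Foxa1, a forkhead factor of secretory cells, did not overlap either, with 5.94 ± 0.12 and 6.22 ± 0.16. These were the 2 of 15 with separate groups, against 10.4% of all named genes. Hes1, the Notch target that holds cells out of the secretory lineage, gave 6.25, 7.00 and 7.31 with PBS and 7.28, 7.26 and 7.32 with free Ub. The PBS values of Hes1 were spread and those of free Ub close together, with an adjusted p of 0.872. Creb3l1, a stress-responsive membrane-bound factor, was at the floor in PBS replicates 1 and 2. Dll4 was at the floor in those samples and in free Ub replicate 3, and both genes count among the 11.

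Of 20 genes of mucin folding and secretion, 12 were higher and 8 lower in mean, 0 with an unadjusted p under 0.05, and the median difference was 0.03. Ern2, the sensor of endoplasmic reticulum stress found in goblet cells, gave 9.49 ± 0.13 with PBS and 9.33 ± 0.19 with free Ub. Capn8 and Capn9, gastrointestinal calpains measured by dim probes, were the 2 of 20 genes whose groups did not overlap, against 10.4% of all named genes. Capn8 gave 2.38, 2.78 and the floor with PBS and 3.35, 4.46 and 3.31 with free Ub, and Capn9 2.83, 1.91 and the floor against 3.04, 3.59 and 3.04. Tmed3, a cargo carrier of the early secretory path, gave 7.79 ± 0.19 and 7.54 ± 0.18.

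The enzymes that add sugars to mucins were measured for 27 of 28 listed genes, of which 16 were higher and 11 lower in mean, with a median difference of 0.05. St3gal1, a sialyltransferase that caps O-glycans, gave 4.75 ± 0.12 with PBS and 4.97 ± 0.08 with free Ub (difference 0.22, unadjusted p = 0.045, adjusted p = 0.872). Galnt1, which starts O-glycans, gave 8.39 ± 0.16 and 8.72 ± 0.18, and Galnt12, of the same family, 4.06 ± 0.33 and 4.67 ± 0.32. Chst5, a sulfotransferase, gave 3.19 ± 0.62 and 1.94 ± 0.65, and its groups did not overlap. In this list 3 genes had groups that did not overlap, St3gal1 and Galnt3 higher and Chst5 lower with free Ub, against 10.4% of all named genes.

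Other mucins and trefoil factors were measured for 7 of 12 listed genes, 1 higher and 6 lower in mean, where 55.7% of all named genes were lower. The median difference was -0.50, and 0 had an unadjusted p under 0.05. Only 1 of the 7, Tff2, had a mean above 6. Muc20 left the floor only in PBS replicate 1, so these counts rest in part on dim probes. Tff2, the trefoil peptide of mucous neck and Brunner glands, gave 10.09, 8.24 and 12.17 with PBS and 11.83, 9.80 and 7.44 with free Ub. Muc1, a membrane mucin of glandular epithelium, gave 5.15, 4.41 and 7.26 with PBS and 7.02, 5.10 and 3.20 with free Ub. Both had their highest values in PBS replicate 3 and free Ub replicate 1 and their lowest in free Ub replicate 3, as the pancreatic markers did. Muc4, a membrane mucin, gave 2.20, 4.24 and 3.90 with PBS and 4.53, 4.80 and 4.25 with free Ub, and was the member of this list with the smallest p among those above the median brightness (adjusted p = 0.872). Its highest PBS value lay just below its lowest free Ub value. Muc4 and Muc6, a gel-forming mucin of glands that was at the floor in all free Ub samples, were the 2 of 7 genes whose groups did not overlap, against 10.4% of all named genes.

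Of 20 other goblet markers, 7 were higher and 13 lower in mean, with a median difference of -0.08. Guca2a, the guanylin peptide that regulates salt and water secretion, gave 10.96, 10.80 and 11.11 with PBS and 10.74, 10.69 and 10.69 with free Ub. The free Ub samples were all below the PBS samples (difference -0.25, unadjusted p = 0.040, adjusted p = 0.872). Guca2a was the 1 gene of 20 with separate groups, against 10.4% of all named genes. Cdc42ep5 gave 9.50 ± 0.09 and 9.29 ± 0.20, Rep15 9.66 ± 0.04 and 9.80 ± 0.20, and Smim14 10.29 ± 0.08 and 10.22 ± 0.04. Klk1, a kallikrein of goblet and pancreatic cells, ran with the pancreatic markers, at 10.70, 9.67 and 12.21 with PBS and 11.96, 10.65 and 9.65 with free Ub.

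Among 16 inducers of mucus genes and their receptors, 5 were higher, 7 lower, and Il25, Il22, Il10 and Il9 never left the floor. The median of the differences was -0.00, and 0 had an unadjusted p under 0.05. Il33, an epithelial and stromal alarm cytokine, gave 7.31, 7.97 and 8.19 with PBS and 6.84, 7.36 and 7.01 with free Ub. Of the Il33 values only that of free Ub replicate 2 reached into the PBS range (difference -0.75, unadjusted p = 0.053, adjusted p = 0.872). Il13ra1, a receptor chain for the cytokine that drives mucus production, gave 8.94 ± 0.15 and 9.05 ± 0.24. Il13 itself gave 2.71 ± 0.39 and 3.13 ± 0.34 from a dim probe, and Il4ra was at the floor in PBS replicate 3.

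**Figure D4:**
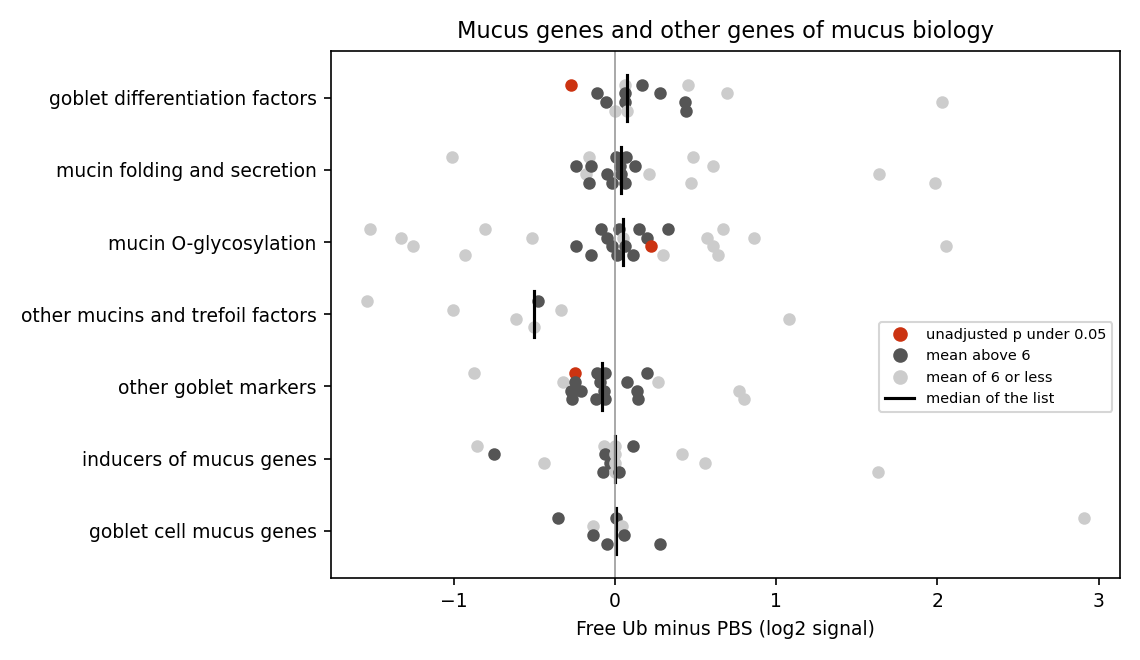
Difference in log2 signal, free Ub minus PBS, for the genes of 6 lists of mucus biology and for the 9 mucus genes, 1 point a gene. Red marks an unadjusted p under 0.05, dark grey a mean above 6 and light grey a mean of 6 or less. The lines mark list medians, which lie between -0.50 (other mucins and trefoil factors) and 0.07 (differentiation factors), and the red points are Cdx2, St3gal1 and Guca2a.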

How the data were processed

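Intestinal RNA of 3 PBS and 3 free Ub samples was measured with 1 array per sample. RNA was extracted with Trizol and depleted of rRNA per the labels. The authors normalized signals in GenomeStudio by cubic spline (version not given in the sources used here), and the deposited signals were taken as log2, a base read from their maximum. Spline normalization gives the arrays 1 common distribution, which removes any shift shared by most genes. Values no more than 0.01 above the minimum of an array count as its floor; 14562 to 15253 probes per array were. The table used here has no detection p-values, and the number of arrays limits the precision.

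Each of 45281 probes was fitted with limma 3.58.1 (R 4.3.3; lmFit, eBayes) for free Ub minus PBS without covariates; p-values are two-sided and were adjusted by Benjamini-Hochberg across the whole table, with 0.05 as threshold. Single members were also tested by exact two-sided permutation (SciPy 1.17.1). Probes were named from the platform annotation, of which 34885 had 1 symbol, 18 several and 10378 none; 34807 were updated by Entrez identifier and 11 by accession, and 67 kept the platform's name. Coordinates and promoters are from RefSeq GRCm38.p6. The members and lists were chosen with earlier results of these data known. Named genes are all members, up to 4 genes per list with the smallest p and a mean above the median of probe means (2.09), and the 8 genes most correlated with the members; Hspa5, Fabp1, Fabp6, Slc10a2, Hoxb13, Slc51a, Slc51b, Vil1, Lct, Ern2, Klk1, Galnt3, Atoh1, Muc6, Dclk1, Slc37a2, Car4 and the floor-bound interleukins were chosen after their values were seen. Gnat3, Rgs13, Dll4, Muc20 and Alox5ap were also chosen after their values were seen. The labels do not say which mouse each sample came from, so p-values measure the spread between these samples. The procedure was tested on simulated data. Alternatives were quantile normalization, median centring, raising values under 4, a brightness filter, mean of a gene's probes, a replicate block, paired and unpaired Student's t-tests, array weights, an intensity trend (robust variances) and omission of each sample.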

Additional observations from a re-analysis of the deposited data

How the results depend on the processing

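No member had an adjusted p under 0.05 under any of 17 alternatives, and the median difference moved only between -0.07 and 0.10 when each sample was left out in turn. At an unadjusted p under 0.05 the count was 0 to 1 of 9 when leaving out a sample: 1 without PBS replicate 1 (Retnlb, unadjusted p = 0.027), without PBS replicate 2 (Clca1, difference 0.42, unadjusted p = 0.028) and without free Ub replicate 1 (Agr2, unadjusted p = 0.027), where 5.78%, 6.39% and 7.22% of all named genes passed. It was 1 with array weights (Retnlb, unadjusted p = 0.039, adjusted p = 0.628; 8.27% of all named genes), which gave PBS replicate 1 the lowest weight, 0.256, and 1 without PBS replicate 3 and free Ub replicate 1 (Agr2; 8.89%), a setting chosen after seeing the data. The fits without PBS replicate 1, PBS replicate 2 or free Ub replicate 1 each dropped the value that opposed the member's difference. They therefore lend it no support. Members with separate groups numbered 0 to 1 when leaving out a sample (17.4% to 26.6% of all named genes) and 3 without both those samples. The 26.6%, without PBS replicate 2, counts genes at the floor on all arrays as separate, because their remaining floor values were all slightly lower with free Ub. Members higher with free Ub numbered 3 to 6, with 3 without PBS replicate 3. Over the 6 fits that left out a sample the difference changed sign for Muc2 (-0.24 to 0.14), Tff3 (-0.24 to 0.0066), Agr2 (-0.60 to 0.41), Spdef (-0.30 to 0.024), Zg16 (-0.10 to 0.14) and Muc13 (-0.011 to 0.12). Without PBS replicate 3 and free Ub replicate 1 it did for Muc2 (0.11) and Agr2 (-0.72). Fcgbp (-0.51 to -0.15) and Clca1 (0.15 to 0.42) kept their sign under all 17, though several of these cannot change it. The replicate block, both t-tests, the intensity trend and the brightness filter use the same member values and leave each difference as it was. The Retnlb difference rests on floor values in PBS replicates 2 and 3 and fell from 2.91 to 0.51 when values under 4 were raised to 4. The cause was not tested. Deviations of same-numbered samples from their group means correlated at -0.14, -0.02 and -0.49 over 9486 probes above 6, and 0 of 6 samples matched its own number best. With 3 samples centred in each group, this cannot show whether the samples were paired by design. With the replicate block in limma and in the methods' t-test (paired Student's), 0 members passed an unadjusted and 0 an adjusted p under 0.05. With 3 samples per group and dim probes for Agr2, Retnlb and the minor Muc2 probes, differences as wide as their intervals were not detectable, and probes near the top of the scale may understate change.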

Other observations

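Tuft cells are the chemosensory cells whose Il25 drives goblet cell expansion. Of 9 measured markers 8 were higher in mean with free Ub, where 44.3% of all named genes and 47.1% of those with a mean above 6 were higher. Only 2 of the 9 had a mean above 6. The median difference, 0.36, was that of Gnat3, which was at the floor on all arrays but free Ub replicate 1, at 1.08. Rgs13 was at the floor in PBS replicates 1 and 2 and free Ub replicate 1. The summed log2 signal of the 9 markers was 8.25 to 8.50 with PBS and 8.56 to 8.84 with free Ub, so these sums did not overlap. The groups of 3 of the 9 genes, Sh2d6, Avil and Trpm5, did not overlap, against 10.4% of all named genes. Sh2d6, an adaptor protein found in tuft cells, gave 5.65, 5.51 and 5.65 with PBS and 6.20, 6.37 and 6.26 with free Ub (difference 0.68, unadjusted p = 0.00027, adjusted p = 0.137 in limma). Avil, an actin-binding protein of the tuft, gave 6.21 ± 0.19 and 6.54 ± 0.13, and Trpm5, a cation channel of taste signals, 3.30 ± 0.86 and 4.54 ± 0.30. Pou2f3, the factor that specifies tuft cells, gave 3.31 ± 0.12 and 2.99 ± 0.18 and was the 1 marker that was lower. Dclk1 gave 5.44 ± 0.44 and 5.46 ± 0.24. 1 of the 9 had an unadjusted p under 0.05, against 5.73% of all named genes, and 0 had an adjusted p under it.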
